A study of Homo sapiens with 3 samples.

Results

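The Notch genes described here are 10 genes of a signalling pathway between neighbouring cells: the receptors NOTCH1, NOTCH2, NOTCH3 and NOTCH4, the ligands DLL1, DLL3, JAG1 and JAG2, and the target genes HES1 and HEY1. They were chosen by gene symbol, not by level. They are read by 11 of the 47293 probes of the array and are 10 of 16225 genes named through the platform annotation. JAG2 has 2 probes and every other member has 1.

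The samples are H9, BG03 and ES01, 3 established lines of undifferentiated human embryonic stem (ES) cells, with 1 Illumina bead array per line. The labels give no genetic change and no treatment that differs between the lines. All 3 were grown on irradiated mouse embryonic fibroblasts (MEFs) in DMEM/F12 medium with serum replacement (KSR) and FGF2, so feeder cells were present in every culture. The study describes the lines as replicates of human ES cells for a comparison with stem cells of the mouse, of which no sample is analysed here. With 1 array per line there is no test between lines, and differences are given by size.

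Notch receptors are single-pass membrane proteins that bind ligands of the Delta-like and Jagged families on an adjacent cell. Ligand binding lets ADAM proteases and then the gamma-secretase complex cut the receptor. The freed intracellular part enters the nucleus, joins the DNA-binding protein RBPJ and Mastermind co-activators, and switches on genes such as those of the HES and HEY families, whose products repress transcription. In the embryo the pathway is best known for holding back neuronal differentiation and for its part in somite and blood vessel formation.

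HES1 is a textbook target of the pathway, and its promoter is shown for the RBPJ motif. The sequences below are the 250 bases before the annotated start, from RefSeq on GRCh38.p14, read 5′ to 3′ on the gene's strand. Capitals mark each copy of TGGGAA, the core of the RBPJ motif, or of its reverse complement TTCCCA. HES1 is shown as the member whose window holds the motif, and NOTCH1 and NOTCH4 as a receptor gene above background in every line and one above it in none. HES1 lies at chr3:194135898-194136147 (+ strand), NOTCH1 at chr9:136546049-136546298 (- strand) and NOTCH4 at chr6:32224068-32224317 (- strand).
HES1: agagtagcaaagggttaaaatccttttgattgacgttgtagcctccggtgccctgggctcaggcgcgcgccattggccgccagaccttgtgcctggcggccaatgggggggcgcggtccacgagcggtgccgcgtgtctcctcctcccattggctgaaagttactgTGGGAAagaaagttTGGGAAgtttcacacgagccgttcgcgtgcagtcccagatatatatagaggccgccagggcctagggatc
NOTCH1: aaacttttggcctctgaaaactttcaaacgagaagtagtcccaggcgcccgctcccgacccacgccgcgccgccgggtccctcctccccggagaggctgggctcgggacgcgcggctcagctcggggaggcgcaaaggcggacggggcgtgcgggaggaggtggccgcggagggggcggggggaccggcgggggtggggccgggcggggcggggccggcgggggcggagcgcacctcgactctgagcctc
NOTCH4: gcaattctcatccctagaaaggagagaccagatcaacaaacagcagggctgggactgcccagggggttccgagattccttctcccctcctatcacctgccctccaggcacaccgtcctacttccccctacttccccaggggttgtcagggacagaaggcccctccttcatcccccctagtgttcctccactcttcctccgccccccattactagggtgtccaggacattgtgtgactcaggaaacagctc

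The HES1 window held 2 copies of TGGGAA in the same orientation, at bases 84 to 79 and 70 to 65 before the start. Of 35116 promoters of the same length in the RefSeq table, 20.9% held at least 1 copy on either strand and 2.90% held at least 2. RefSeq windows were found for 7 of the 10 members, and HES1 was the only one of these 7 with a copy. The others of the 7 are receptors and ligands, and no window was found for HEY1, DLL1 and DLL3. Among other genes listed with the HES and HEY family, HES5 and HEYL held 2 copies each. HES3, HES4, HELT and HEY2 held 1 each, and HES2, HES6, HES7 and BHLHE40 held none. HES1 also held 3 copies of CACNAG or its reverse complement CTNGTG, the N-box bound by HES proteins. Of all promoters, 32.0% held at least 1 copy of the N-box and 6.32% at least 2, and the share with at least 3 was not counted. The NOTCH1 window held 33 CpG dinucleotides and that of NOTCH4 held 3, against a median of 11 over all promoters. NOTCH2 had 29, NOTCH3 28, JAG2 38, JAG1 17 and HES1 18. A match of letters is a description and does not show that a factor binds there.

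Most of the Notch genes were detected in these cells. The threshold for detection was set per array at the level under which 95% of 214 probes for olfactory receptor genes lay, 11.2 units in H9, 12.6 in BG03 and 13.3 in ES01. By that threshold, 8 of 10 members were above background in all 3 lines, and NOTCH4 and DLL3 were above it in none. Of all 16225 genes, 59.8% were above background in all 3 lines, so the members' count is set against a majority of genes. With the 99th percentile as threshold, 21.4 to 30.9 units, HES1 and JAG2 were no longer above it in every line and 6 members remained. Genes above background in at least 1 line also became fewer with it, 9598 against 11000. The share of all genes above it in every line was not computed at that threshold. Intensities are linear units after quantile normalization, given in the order H9, BG03 and ES01, with SDs over the 3 lines (n = 3). Probes bind with different strength, so the level of a gene was not set against that of another. No probe was checked for reading its transcript, so a gene under background is not shown to be absent.

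Among the receptors, NOTCH1 was read at 226, 242 and 269 units (246 ± 21.7, SD, n = 3). NOTCH1 is a receptor that mouse embryos need to survive midgestation. All 3 values were at least 19.1 times the threshold of their array. On the log2 scale the NOTCH1 SD over lines was 0.13.

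NOTCH2 was read at 38.8, 41.3 and 58.0 units (46.1 ± 10.4, SD, n = 3). H9 and BG03 lay close together, and ES01 stood at 1.49 times H9 and 1.40 times BG03. NOTCH2 has partial copies in the human genome, the NOTCH2NL genes. A separate probe annotated to NOTCH2NLA gave 122, 110.5 and 137 units, and whether the NOTCH2 probe also reads these copies was not tested.

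NOTCH3, a receptor known from vascular smooth muscle, was read at 51.5, 66.2 and 81.7 units (66.5 ± 15.1, SD, n = 3). H9 was lowest and ES01 highest, 1.59 times H9. All 3 receptors above background thus had their lowest value in H9 and their highest in ES01, except that with each array scaled to the same median ES01 lay below the other lines for NOTCH1 and below BG03 for NOTCH3. On that scaling the log2 difference of NOTCH1 was 0.04 for H9 minus ES01 and 0.19 for BG03 minus ES01, and that of NOTCH3 was 0.02 for BG03 minus ES01. That scaling moved the median of all genes to 0.27 for H9 minus ES01 and 0.34 for BG03 minus ES01, and relative to those medians NOTCH1 lay at -0.24 and -0.15 and NOTCH3 at -0.63 and -0.32.

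NOTCH4, a receptor best known from endothelial cells, was read at 0.20, -0.30 and -3.53 units, far under the thresholds. Its single probe was not checked for reading the transcript, so this does not show that NOTCH4 is absent. Of 9 endothelial markers, 5 were above background in all 3 lines. Their summed intensity was 306, 269 and 399 units, and CDH5, TIE1 and ERG were above background in no line.

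The 3 ligands above background were highest in H9, also under each other scaling tried. DLL1, a Delta-like ligand that activates receptors on the adjacent cell, was read at 73.9, 34.4 and 29.7 units (46.0 ± 24.3, SD, n = 3). H9 was highest, 2.15 times BG03 and 2.49 times ES01, while BG03 and ES01 lay close together. DLL1 was the 1 member that differed at least 2-fold between any 2 lines.

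JAG1, a Jagged ligand mutated in Alagille syndrome, was read at 56.9, 45.5 and 48.2 units (50.2 ± 5.93, SD, n = 3). H9 was highest, 1.25 times BG03 and 1.18 times ES01. JAG2, the other Jagged ligand, was read by a probe for all its forms at 36.9, 24.3 and 23.5 units (28.3 ± 7.53, SD, n = 3). H9 was again highest, 1.52 times BG03 and 1.57 times ES01. The other JAG2 probe, marked by its name as specific to 1 isoform, gave -1.97, 0.10 and 5.73 units and was above background in no line. The 2 probes therefore disagree on detection, and the gene is counted as above background through the first.

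DLL3 is a divergent ligand that, in mice, acts inside the cell during somite formation and does not activate receptors in neighbouring cells. It was read at 10.7, 8.43 and 11.0 units, between 0.668 and 0.948 times the thresholds. DLL3 lay just under background in H9. With a second set of background probes (thresholds of 9.17 to 11.1 units) it passed in H9 and ES01, so its call rests on the threshold, and no difference between lines is given for it.

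Both target genes were above background in every line. HES1, a repressor of the basic helix-loop-helix (bHLH) family and the gene with the TGGGAA copies printed above, was read at 32.7, 25.4 and 45.0 units (34.4 ± 9.88, SD, n = 3). ES01 was highest, 1.77 times BG03 and 1.38 times H9. HEY1, a related repressor known from heart and vessel development, was read at 159, 172 and 132 units (154 ± 20.5, SD, n = 3). Here BG03 was highest, 1.30 times ES01, so the lines that were highest and lowest for HEY1 were the lowest and highest for HES1.

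**Figure D1:**
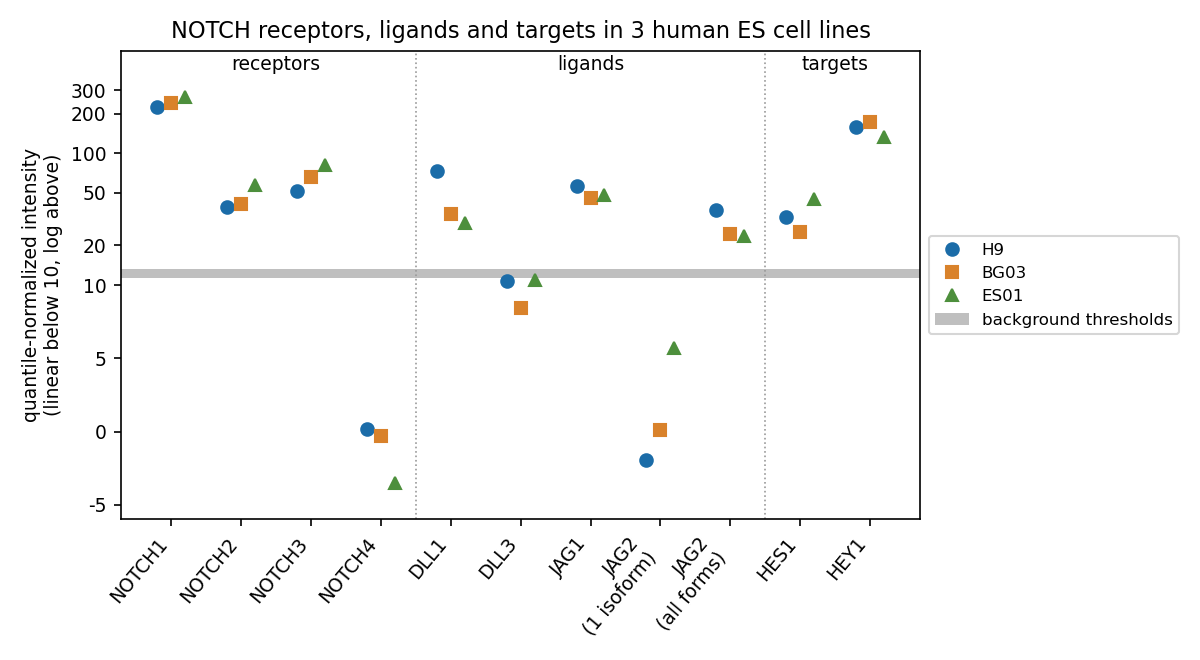
Quantile-normalized intensity (vertical axis, linear below 10 and logarithmic above) of each of the 11 probes, with 1 point per line for H9, BG03 and ES01 and a grey band over the 3 background thresholds, 11.2 to 13.3 units. The points of NOTCH4, DLL3 and the isoform probe of JAG2 lie under the band, and H9 stands apart above the other lines for DLL1.

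Differences between lines were set against those of every gene detected in any line. Between H9 and BG03, 1 of 8 members differed at least 2-fold, against 3.23% of 11000 genes. H9 and ES01 gave 1 of 8, against 5.1% of genes, and in both pairs the member was DLL1, higher in H9. For BG03 and ES01 the count was 0 of 8, against 3.74%. The pairs share arrays, so the DLL1 difference in both H9 pairs rests on the same H9 array.

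The median log2 difference over the 8 members was 0.12 for H9 minus BG03, -0.01 for H9 minus ES01 and -0.12 for BG03 minus ES01, beside -0.03, -0.01 and 0.01 over all genes. The members spanned -0.36 (NOTCH3) to 1.10 (DLL1) for H9 minus BG03. For H9 minus ES01 they spanned -0.67 (NOTCH3) to 1.32 (DLL1), and for BG03 minus ES01 -0.82 (HES1) to 0.38 (HEY1). The middle of the 8 values thus lay near 0 while single members lay on either side of it. NOTCH1, NOTCH2 and NOTCH3 had log2 differences of -0.25, -0.58 and -0.67 for H9 minus ES01, of which that of NOTCH1 changed sign with same-median scaling. DLL1, JAG1 and JAG2 were higher in H9 than in ES01 by 1.32, 0.24 and 0.65.

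**Figure D2:**
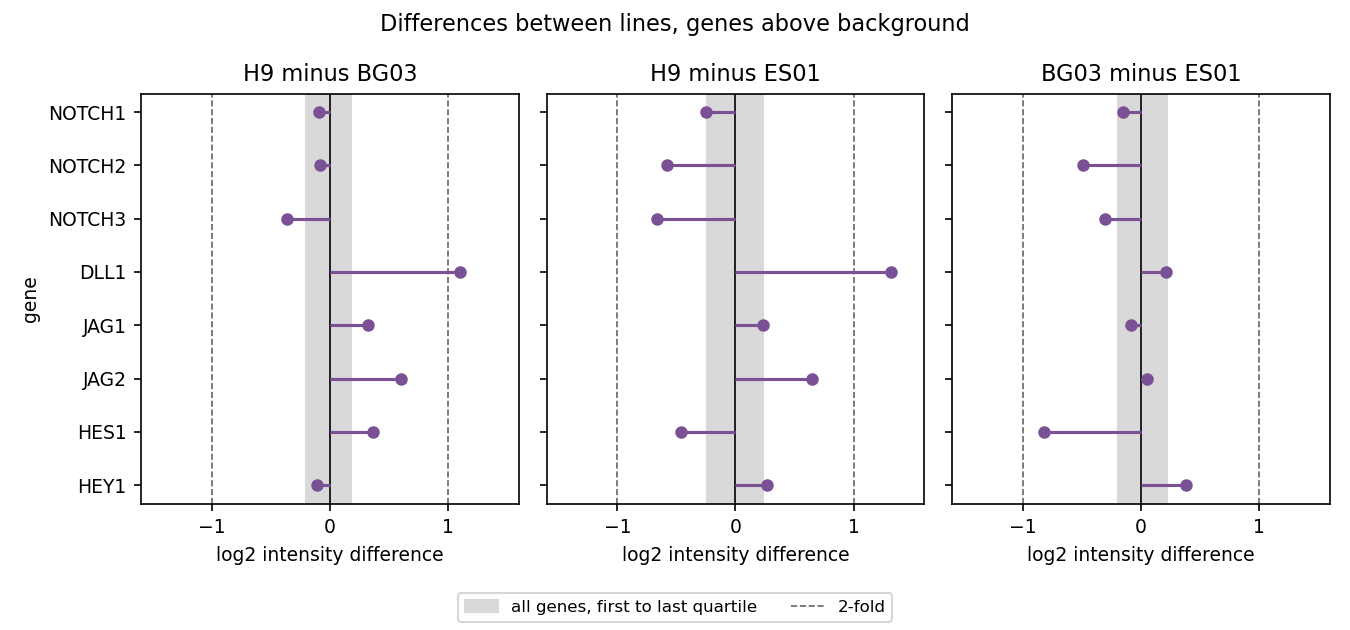
Log2 intensity difference (horizontal axis) of the 8 genes above background for each pair of lines, with the range between the quartiles of all 11000 genes in grey and dashed lines at 2-fold. DLL1 passes the 2-fold line in both H9 panels, at 1.10 and 1.32, and the receptors and ligands lie on opposite sides of 0 in the H9 minus ES01 panel, which for NOTCH1 did not hold with same-median scaling.

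Each bead type was read by a median of 42 beads per array, which gives an error within an array. The bead files carry codes with no gene names, so the error was taken from bead types at the same intensity rank. Each array held 48925 bead types against 47293 probes in the deposited values, so ranks in the 2 sets match only roughly. At the ranks of the 8 genes above background, the standard error over beads was between 3.93% and 14.9% of the intensity. Bead errors are in the units of the bead files and intensities in deposited units. These scales were not matched, so the percentages and the ratios below are approximate. The deposited DLL1 intensity was 73.6 units in H9, against 34.3 in BG03 and 29.7 in ES01. These differences of 39.3 and 43.9 units were 5.89 and 6.63 times their bead error, while the DLL1 difference of 4.60 units between BG03 and ES01 was 0.85 times its own. HES1 differed by -20.1 units for BG03 minus ES01, a ratio of -3.56 to its bead error, and HEY1 by 43.6 units, a ratio of 4.02. NOTCH3 differed by -31.1 units for H9 minus ES01, a ratio of -4.25. The JAG1 differences were 1.68 times their bead error at most. Bead error leaves out the labelling, the hybridization and the culture, so a difference past it is one between arrays.

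The spread over the 3 lines was also set beside that of genes at a like level. The DLL1 log2 SD of 0.71 was larger than that of 92.0% of the 500 genes nearest in mean intensity. HES1 (SD 0.41) stood above 68.3% of its neighbours, NOTCH3 (0.33) above 67.7%, JAG2 (0.36) above 55.9%, NOTCH2 (0.31) above 54.5% and HEY1 (0.20) above 52.7%. NOTCH1 (0.13) and JAG1 (0.17) were above 34.3% and 22.8%. Apart from DLL1, no member's SD was above that of more than 68.3% of its neighbours.

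**Figure D3:**
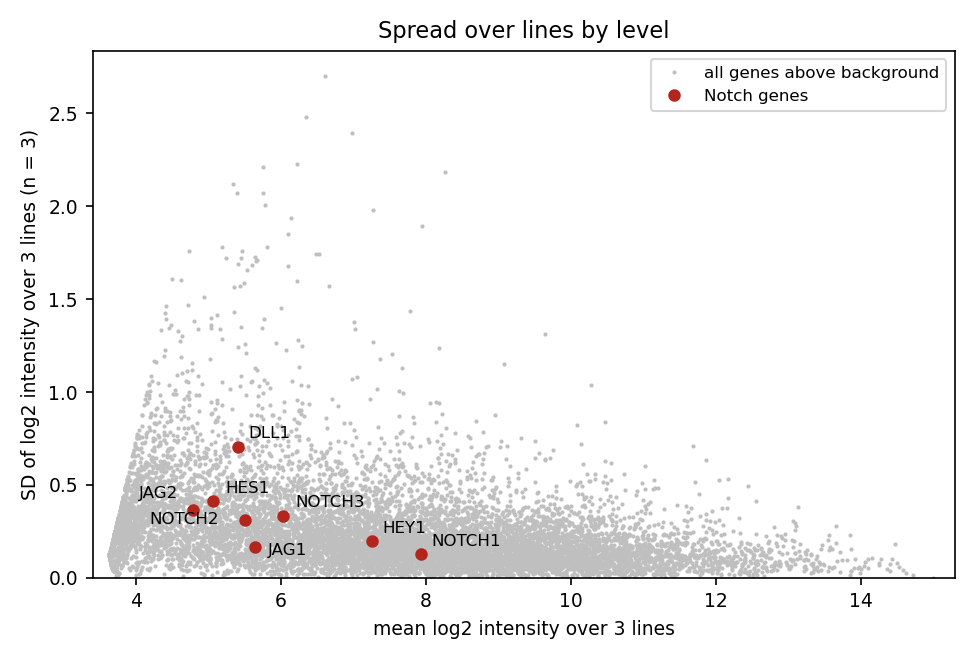
SD of log2 intensity over the 3 lines (vertical axis, n = 3) against mean log2 intensity (horizontal axis) for every gene detected in any line, with the 8 Notch genes in red. DLL1 lies highest of the 8 at an SD of 0.71, and the other 7 lie between 0.13 and 0.41 within the cloud of genes of their level.

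The machinery around the receptors was largely above background. A list of 79 further pathway genes, sorted by role and chosen with earlier results of these data known, had 66 measured genes. Of these, 51 were detected in every line (77.3%, beside 59.8% of all genes), 12 in none and the other 3 in some. The 2 shares are a description, since the list was picked by hand. All 7 measured processing genes were above background in every line. NCSTN, APH1A and PSENEN, subunits of gamma-secretase, were read at 933, 1024 and 994 units, at 611, 626 and 555 units and at 533, 471 and 454 units. ADAM10, the protease that makes the first cut after ligand binding, and FURIN, which cleaves the receptor on its way to the surface, were also above background in every line.

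Of 4 measured glycosylation genes, 3 were above background in all lines. POGLUT1, which adds glucose to the receptor, was read at 242, 244 and 264 units, and EOGT, which adds N-acetylglucosamine, at 146, 156 and 261 units. A second EOGT probe gave 28.6, 31.6 and 33.5 units, a smaller difference between ES01 and the other lines. POFUT1, which adds the fucose that Fringe enzymes extend, was read at 40.3, 46.4 and 46.9 units by an isoform probe, while its probe for all forms was above background in no line. MFNG, the Fringe enzyme measured here, passed the threshold in H9 alone.

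RBPJ, the DNA-binding partner of the cleaved receptor, was read at 5477, 6318 and 5741 units by an isoform probe and at 1947, 2218 and 1996 units by the probe for all forms. The other RBPJ probe, for a different isoform, was above background in no line. Of 9 co-activator genes 6 were above background in every line, among them MAML1 and the acetyltransferases CREBBP (583, 724 and 771 units) and EP300 (447, 537 and 589 units). MAML2 and MAML3 were above it in none. Co-repressors reached 10 of 11, with HDAC2 at 3385, 2845 and 3631 units, HDAC1 at 2476, 2538 and 2129 units and CTBP2 at 1901, 1809 and 2157 units. CTBP1 was the exception. The CTBP2 values are from its probe for all forms. An isoform probe of CTBP2 gave 60.7, 47.4 and 19.2 units, with H9 highest and ES01 lowest, and another was above background in no line.

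Trafficking and turnover genes reached 11 of 14. CUL1, a ubiquitin ligase scaffold, was read at 2051, 2186 and 2221 units, NUMB, an inhibitor of Notch in asymmetric division, at 981, 1061 and 997 units, and DTX3, of the Deltex family, at 743, 718 and 483 units. NEURL1, DTX1 and DTX4 were above background in no line, and the ubiquitin ligase MIB1, which acts on ligands, was above it in every line. Other ligands reached 3 of 6: DLL4 and CNTN6 were above background in none, DNER in H9 and ES01. DLK1, a Delta-like protein without the domain that activates receptors, was read at 30.2, 18.6 and 19.3 units and DLK2 at 12.4, 18.8 and 22.3 units. An isoform probe of DLK2 gave 15.0, 9.07 and 13.9 units, with H9 highest, and was not above background in BG03.

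Of the 6 other genes measured in the HES and HEY family list, in which BHLHE40 was counted, 5 were above background in all 3 lines. HES4 was read at 232, 131 and 179 units, HEY2 at 99.2, 101 and 125 units and HEYL at 51.9, 85.8 and 75.7 units. HES6, a family member that counteracts HES1 in mouse neural cells, was read at 62.8, 33.0 and 31.2 units, 2.01 times higher in H9 than in ES01. HES7, the somite clock gene, was above background in no line. The proneural genes NEUROG1, NEUROG2 and ATOH1, which HES proteins repress in neural tissue, were above background in none either. ID1, ID3 and TCF3, dimer partners or inhibitors of bHLH proteins, were above it in all.

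Of the 54 pathway genes above background in at least 1 line, 6 (11.1%) differed at least 2-fold between some pair of lines, beside 8.23% of all genes. Besides HES6, the ubiquitin ligase gene NEDD4 (46.0, 17.3 and 20.4 units) and ID2, an inhibitor of bHLH proteins (616, 259 and 404 units), were highest in H9. CNTN1, a neural adhesion gene, was lower in ES01 (97.3, 98.3 and 47.9 units), and the bHLH repressor gene BHLHE40 (36.5, 71.8 and 96.2 units) and DNER (14.9, 10.3 and 28.2 units) were highest there. DNER was not above background in BG03, so its 2.24-fold difference is at least that size. NEDD4 has 3 probes, and its 2 isoform probes were above background in no line.

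**Figure D4:**
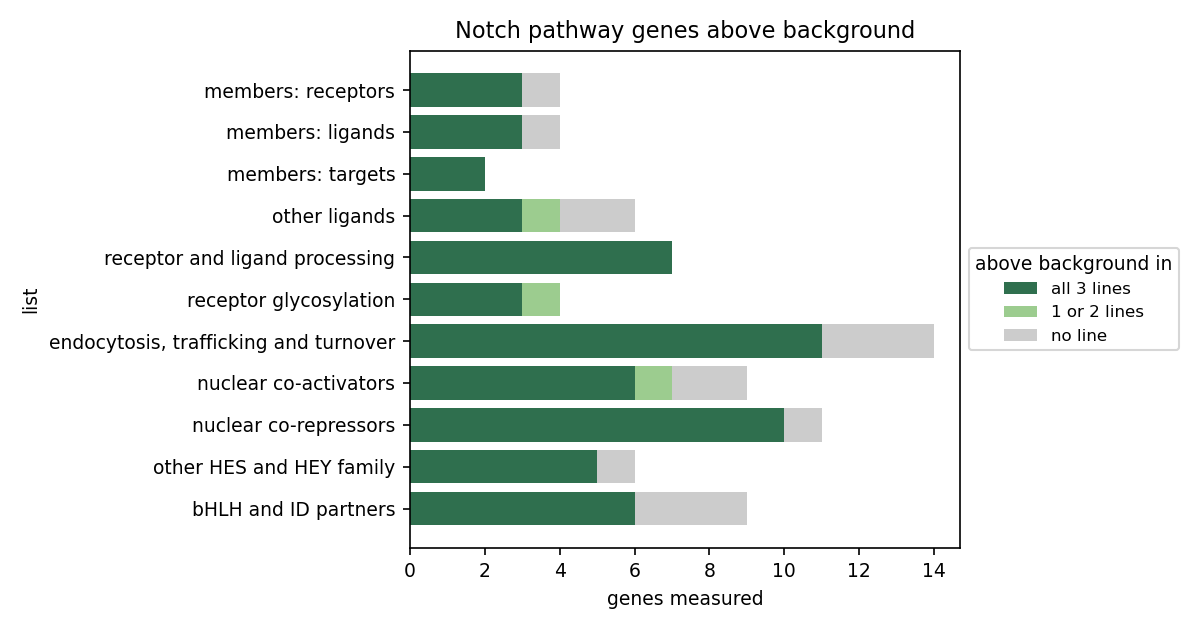
Number of measured genes (horizontal axis) in each role list, split by whether they were detected in every line, in some or in none. Processing genes are complete at 7 of 7 and co-repressors reach 10 of 11, while other ligands reach 3 of 6.

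The labelled cell type was checked against markers. Of 9 measured pluripotency markers, 8 were above background in all 3 lines, with POU5F1 and NANOG among them and SOX2 above it in none, and their summed intensity was 16763, 18750 and 20726 units. SOX2 was read by a single unchecked probe (3.87, 5.03 and 3.90 units), which does not show that SOX2 is absent. Of 7 neural progenitor markers, 3 were above background in all lines and SOX1 in none, and their summed intensity was 1517, 1517 and 1780 units. Fibroblast markers reached 4 of 10, with COL3A1, COL6A3 and POSTN above background in no line and a summed intensity of 1175, 1212 and 1547 units. The sums of all 4 marker lists, the endothelial one included, were highest in ES01, as were NOTCH1, NOTCH2, NOTCH3 and HES1. With same-median scaling NOTCH1 and NOTCH3 were not, with log2 differences of 0.19 and 0.02 for BG03 minus ES01. Without its brightest gene, DNMT3B, the pluripotency sum was 10048, 11192 and 11713 units and still highest in ES01. The endothelial sum was highest there only through TEK (29.4, 48.15 and 162 units), and with TEK left out H9 would be highest. Without its brightest gene, SOX17, the endothelial sum was 207, 176 and 294 units. Without its brightest gene, TUBB3, the neural sum was 169, 248 and 204 units and highest in BG03. Without its brightest gene, THY1, the fibroblast sum was 423, 361 and 724 units, and without COL1A2 it was 865, 984 and 966 units and highest in BG03. Single markers went with DLL1 in being highest in H9, among them VWF (58.3, 24.3 and 27.5 units) and DCN (30.5, -0.60 and 26.4 units), both picked with their values known. For DCN, H9 and ES01 lay close together, with a log2 difference of 0.21 against 1.32 for DLL1, and BG03 was the low line. COL1A1 and COL1A2, of the same list as DCN, were highest in ES01. The lists of VWF and DCN did not follow DLL1 as a whole. Of 6 endothelial markers above background in some line, 4 were higher in H9 than in BG03 and 3 higher in H9 than in ES01. Of 7 such fibroblast markers, these counts were 3 and 2. The part of other cell types in any of these differences was not tested. In these RNA samples, fewer cells of a type and less RNA per cell cannot be told apart.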

How the data were processed

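Total RNA (TRIzol extraction, Cy3 label, an Illumina whole-genome assay, per the labels' protocols) was measured on 1 array for each of 3 human ES cell lines, put in 1 group by the labels. The deposited table gives 1 intensity per probe on a linear scale; 33.8%, 32.8% and 26.3% of values in H9, BG03 and ES01 are below 0, so the background had been subtracted. Which software the authors used, and whether they scaled the arrays, is not given in the sources used here. The deposited bead files hold 1 green intensity per bead, per the file headers (2089034 to 2102778 beads per array), and served for error within an array only. Without a second array of any line, line, culture and array differences cannot be told apart in the spread.

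Of 47293 probes, 18468 have 1 gene symbol in the platform annotation, none has several and 28825 are unnamed here; 18451 were matched by gene ID to RefSeq symbols (GRCh38.p14). Probes other than 4 bacterial controls were quantile-normalized. For the 1614 genes with several probes the one with the highest mean was used, and a gene counted as above background if any of its probes was. Before log2 was taken, values under an array's threshold were set to it, and only genes detected in some line entered the differences. Outlying beads, more than 3 scaled median absolute deviations away from the median of their bead type, were dropped (0.534% to 0.583%), and the median standard error over the 250 ranks on either side of a probe's rank was used.

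The 10 members and the gene lists were chosen with earlier results of these data known. Named genes are all members and, in each other role list, the 3 with the highest mean and any differing at least 2-fold; genes named beyond these, such as those under background, ADAM10, FURIN, MIB1 and MAML1, were picked with their values known. The fold calculation was tested on simulated data, with changes larger than those of DLL1 put into genes brighter than DLL1. That test does not cover 2-fold calls near background. Tools were pandas 2.3.3, numpy 2.4.6 and matplotlib 3.10.9 under Python 3.11.15, with ranks from scipy 1.17.1.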

Additional observations from a re-analysis of the deposited data

How the results depend on the processing

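The 2-fold count of each pair (DLL1 in both H9 pairs, none between BG03 and ES01) was the same with values as deposited, same-median scaling, the 99th percentile background, a second background set of keratin-associated, taste receptor and defensin probes, the mean over probes, 1 floor for all arrays, no filter on dim genes and with the third line left out. The count of 8 members above background in every line was 6 with the 99th percentile (21.4 to 30.9 units), where JAG2 and HES1 dropped out, 7 with the mean over probes, where JAG2 dropped out, and 8 otherwise, including with each line left out; with the second background set DLL3 passed in H9 and ES01. The 51 other pathway genes were between 47 and 52. Genes above background in at least 1 line numbered 9598 with the 99th percentile and 10841 with the mean over probes, against 11000. The share of all genes above background in every line was not computed outside the main setting. At 1.5-fold the counts were 2 (DLL1 and JAG2) for H9 minus BG03, 3 (NOTCH3, DLL1 and JAG2) for H9 minus ES01 and 1 (HES1) for BG03 minus ES01, beside 11.8%, 16.3% and 13.5% of all genes. The median of the members for H9 minus BG03, 0.12, reversed to -0.0054 with the 99th percentile background, where the higher floor cut the HES1 difference to 0.08 against 0.36; to -0.061 with the second set of background probes, where DLL3 entered at that value; and to -0.093 when dim genes were kept and NOTCH4 and DLL3 entered at the difference between the thresholds, -0.17. With same-median scaling the members' median was 0.29 for H9 minus ES01 and 0.21 for BG03 minus ES01, where that of all genes was 0.27 and 0.34. With the mean over its 2 probes the mean log2 level of JAG2 was 3.89, against 4.79. No paired analysis was possible because the lines form 1 group with 1 array each. DLL3 and the isoform probe of JAG2 lie at or under background, where signal limits what can be said.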
